A study of Caenorhabditis elegans with 12 samples.

Results

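The yolk and eggshell genes of Caenorhabditis elegans were followed here as a readout of adult and oocyte-forming content in whole-animal RNA. The set is vit-1 to vit-6, rme-2, cpg-1, cpg-2 and cpg-3, and it was represented by every probe set that the platform annotation gives to one of these 10 genes. This gave 16 of the 22625 probe sets on the array, for 9 of the 10 genes and out of 18217 annotated genes, since no probe set named vit-3. Of the 16 probe sets, 2 are annotated to both vit-4 and vit-5 and are reported as shared, because their signal cannot be assigned to either gene. All 6 vit-4 and vit-5 probe sets, and 1 of cpg-1, carry the suffix that marks possible cross-hybridisation, so these levels are uncertain even where a single gene is named. None of the sources used here gives the animals' stage.

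Total RNA from 2 strains was hybridised to 12 arrays, 6 per strain. The HLH strain carries pHS::hlh-8 and pHS::hlh-2, which place the Twist gene hlh-8 and its E protein partner hlh-2 behind a heat shock promoter, along with pRF4 and egl-15::gfp. The marker strain, egl-15::gfp; pRF4, lacks both heat shock constructs. Both strains share the egl-15 reporter and the pRF4 marker plasmid. The design text describes 3 biological replicates of each strain with and without heat shock, but no label ties an array to heat. Arrays are therefore named by the code in their title (codes 1 and 2 in the HLH strain, codes 3 and 4 in the marker strain, 3 arrays each) and by the set number in front of it (1, 2 or 3), and what a set stands for is not given. The array titled 2_2 (2), here replicate 3 of HLH code 2, repeats a title of set 2 while set 3 lacks an array of code 2, so its set is uncertain. It entered the strain and code comparisons and was left out of the set comparisons. Values are MAS5 signals scaled to the same 2% trimmed mean of 500.1 on every array, with array medians of 180.3 to 208.

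Vitellogenins are the yolk lipoproteins of the nematode, made in the intestine of the adult hermaphrodite, secreted into the body cavity and taken up by oocytes. RME-2, a member of the low-density lipoprotein receptor family on the oocyte surface, is the receptor for this uptake. CPG-1, CPG-2 and CPG-3 are chondroitin proteoglycans made by oocytes and built into the eggshell after fertilisation, and in CPG-1 and CPG-2 the core protein also binds chitin.

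The probe sets of vit-1, vit-2, vit-4 alone and vit-5 alone were below the array median on every array. The vit-2 probe set (191323_at) read between 1.4 and 12.8, under the floor of 16.7 (the 10th percentile of all values) on 12 of 12 arrays, so no fold was computed for it. The vit-1 probe set (177065_at) ranged from 7.3 to 75.6 with a median of 19.2, and 4 arrays, all of the marker strain, were at the floor. The vit-5 probe set (172696_x_at) ranged from 14.5 to 98.4 and was never above an array's median. Those of vit-4 alone, 3 in number, ranged from 64.9 to 171.3 (171723_x_at), 52.6 to 153.2 (172134_x_at) and 19.9 to 104.9 (172673_x_at). The 2 shared vit-4 and vit-5 probe sets lay near the array median, above it on 3 of 12 arrays for 172133_x_at (104.6 to 233.3) and on 5 of 12 for 194239_x_at (142.9 to 299.7).

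vit-6 had 1 brighter probe set. 173411_s_at read 157.9 to 533.7 with a median of 337.2 and was above the array median on 11 of 12 arrays. The other, 190649_at, read 41.9 to 103.8 and was above it on none. The rme-2 probe set (191883_at) read 195.4 to 343.8 and was above the median on 11 of 12 arrays. For the eggshell genes, cpg-1 read 367.1 to 816.7 on 192390_at and 134.2 to 263.7 on 171776_x_at, and cpg-3 (178717_at) read 233.2 to 355.5. Both cpg-2 probe sets spanned a wide range, 98.4 to 517.5 for 187525_s_at and 123.8 to 516.5 for 194163_s_at. Signals of different probe sets are not on a common scale, so these ranges place each probe set on its own arrays and do not rank the genes.

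**Figure D1:**
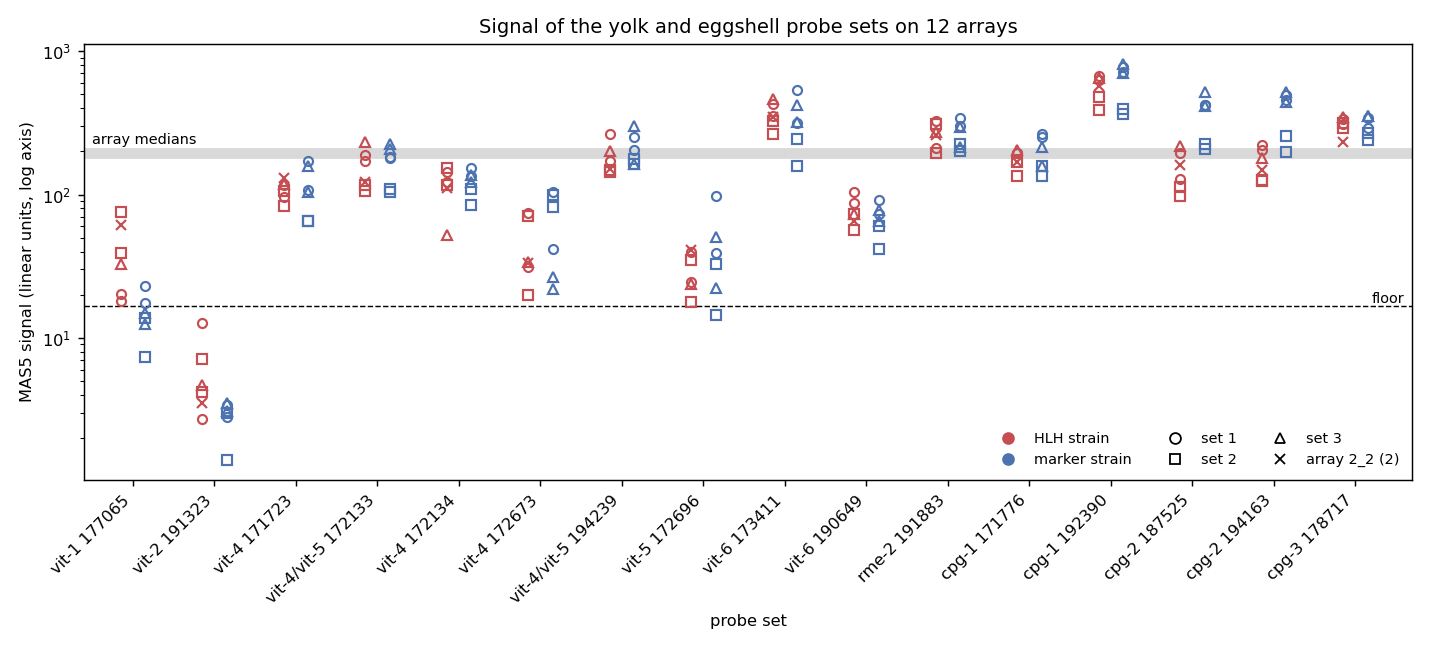
MAS5 signal (linear units on a log axis) of the 16 yolk and eggshell probe sets, labelled by gene and probe set number, on 12 arrays; colour gives the strain and shape the set. The grey band is the range of array medians (180.3 to 208) and the dashed line the floor (16.7): vit-2 lies below the floor on 12 of 12 arrays, and most marker arrays of cpg-2 lie above its HLH arrays.

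Testing was limited to probe sets that exceeded the median of their array on 3 or more arrays, which 9 of the 16 did: both shared vit-4 and vit-5 probe sets, 1 for vit-6, 1 for rme-2, 2 for cpg-1, 2 for cpg-2 and 1 for cpg-3. The other 7, covering vit-1, vit-2, vit-4, vit-5 and the second vit-6 probe set, were not tested. Differences come from limma across all 12328 tested probe sets, with Benjamini-Hochberg adjustment over all of them, and a call means an adjusted p under 0.05.

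cpg-2 was called lower in the HLH strain, a call that depends on the filter. Both cpg-2 probe sets passed it mainly through the marker strain, being above the array median on 6 marker and 1 HLH arrays for 187525_s_at and on 5 and 2 for 194163_s_at. With no filter the differences were of the same size and neither was called (limma adjusted p 0.10 and 0.11). On 187525_s_at the arrays of HLH code 1 read 196.0, 98.4 and 218.9 (replicates 1 to 3) and those of HLH code 2 read 127.9, 113.1 and 161.0. The arrays of marker code 3 read 419.3, 208.9 and 415.1 and those of marker code 4 read 423.2, 226.0 and 517.5. Across the strains the ranges overlapped narrowly, since the HLH arrays reached 218.9 and the marker arrays of set 2 started at 208.9. The means were 152.6 ± 47.9 in the HLH strain and 368.3 ± 123.1 in the marker strain (SD, n = 6 each). The log2 difference was -1.25 ± 0.27 (SE), or 2.38-fold lower, with a limma adjusted p of 0.028. Because these are bulk samples, fewer cells making a transcript and less transcript per cell cannot be told apart.

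The second cpg-2 probe set gave the same picture. On 194163_s_at the arrays of HLH code 1 read 222.5, 126.4 and 179.8 and those of HLH code 2 read 205.3, 123.8 and 149.2. Marker code 3 read 457.1, 196.9 and 438.9 and marker code 4 read 491.5, 254.5 and 516.5, so the overlap again came from a marker array of set 2. The strain means were 167.8 ± 41.3 and 392.6 ± 133.3 (SD, n = 6 each), and the HLH strain was 2.26-fold lower (log2 difference -1.18 ± 0.26, limma adjusted p 0.031). These 2 probe sets read the same gene and are not independent evidence.

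Within each of the 3 sets, every HLH array was below every marker array for both cpg-2 probe sets. The within-set log2 differences were -1.41, -1.04 and -1.08 in sets 1, 2 and 3 for 187525_s_at and -1.15, -0.84 and -1.40 for 194163_s_at. Of all tested probe sets, 6.7% were lower in the HLH strain without overlap in each of the 3 sets, against 1.7% without overlap when the sets were pooled. With set as a replicate block on 11 arrays, the differences were -1.22 and -1.09 with limma adjusted p of 2e-04 and 0.00019. Without the block both calls are fragile: leaving out 1 array ended the call for 187525_s_at with any array of set 1, an HLH array of set 2 or a marker array of set 3 (adjusted p 0.052 to 0.073). The call for 194163_s_at ended without a marker array of set 1, an HLH array of set 2 or any of the 4 arrays of replicate 3 (0.059 to 0.082).

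**Figure D2:**
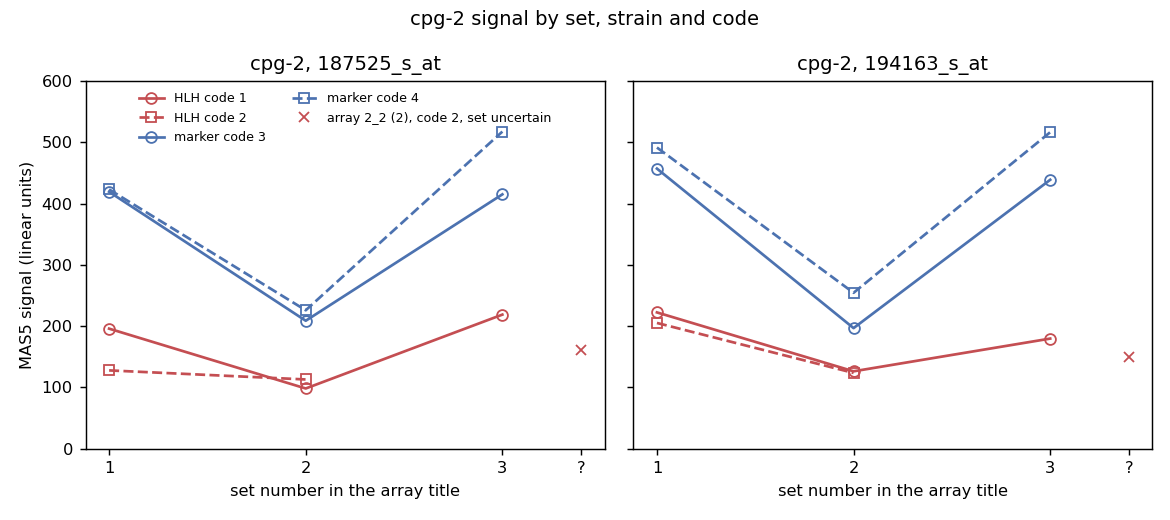
MAS5 signal (linear units, axis from 0) of the 2 cpg-2 probe sets by set number, with lines joining the arrays of a code; the cross is the array 2_2 (2), whose set is uncertain. In each set the marker strain (blue) is above the HLH strain (red), and set 2 is low in both, with marker arrays at 196.9 to 254.5.

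The other 7 tested yolk and eggshell probe sets showed no strain call. Over all tested probe sets 2.72% were called between the strains and 1.59% were called lower in the HLH strain, beside which the 2 of 9 stand. The log2 differences of the uncalled 7 ran from -0.22 to 0.21, with limma adjusted p of 0.63 to 0.99. rme-2 differed by 0.00 ± 0.15, and cpg-3 by -0.01 ± 0.14. cpg-1 differed by -0.11 ± 0.20 on 171776_x_at and -0.12 ± 0.23 on 192390_at. The vit-6 probe set 173411_s_at was the one of the 9 with the highest difference, 0.21 ± 0.25. vit-1 did not pass the filter, and its HLH arrays read 18.1 to 75.6 against 7.3 to 22.9 in the marker strain. With 4 of its 6 marker arrays at the floor, no fold is given.

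Other genes of the eggshell were called with strain only in the blocked fit. Of 16 tested genes of the eggshell and its layers, 0 were called between strains by limma without the block, with 6 at an unadjusted p under 0.05. Over all 12328 tested probe sets, 1983 were at that unadjusted p without the block. The nearest were cpg-9 and cpg-8, further chondroitin proteoglycans, at -0.81 (adjusted p 0.054) and -0.77 (0.11). With the replicate block, 2 of the 16 were called lower, cpg-8 at -0.86 and cpg-9 at -0.84 (limma adjusted p 9.2e-05 and 0.0055), and 2 higher, sqv-4 at 0.71 and perm-5 at 0.49. sqv-4 acts in the making of the sugar precursors of chondroitin, and perm-5 in the eggshell's permeability barrier. In that blocked fit 7.26% of all tested probe sets were called lower and 6.78% higher. Of 13 tested oogenesis genes 0 were called by limma with or without the block, with 2 and 0 at an unadjusted p under 0.05. The share of all tested probe sets at that unadjusted p in the blocked fit is not given here, so the 2 has no background beside it. Among 13 genes of yolk uptake and endocytosis, dyn-1, the dynamin that pinches off vesicles, was called higher in the HLH strain (0.49, adjusted p 0.034).

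Some intestinal markers were called lower in the HLH strain in the blocked fit. Of 8 intestine genes, 0 were called without the block (4 at an unadjusted p under 0.05 in limma) and 5 were lower with it, among them ges-1, a gut esterase, at -0.65 and ifb-2, an intermediate filament protein of the gut, at -0.45 (limma adjusted p 0.00048 and 0.0013). Of all 12328 tested probe sets, 1983 were at that unadjusted p without the block. With it 7.26% were called lower and 6.78% higher. The other 3 intestine genes were not called, act-5 at -0.11, vha-6 at -0.05 and pept-1 at -0.002. Of 13 tested genes of vitellogenin regulation and lipoprotein assembly, 3 were called lower in the blocked fit, elt-2, which is also one of the 5 intestine genes, pqm-1 and sgk-1, at -0.31, -0.40 and -0.36. The summed signal of the 8 intestine genes was 33953 to 47102.1 in the HLH strain and 39809.4 to 59848.8 in the marker strain. Within each set the HLH sums were below the marker sums, at most 43835.1 against at least 50759.9 in set 1, 34168.4 against 39809.4 in set 2 and 47083.1 against 59750.8 in set 3. Set 3 held only the HLH array of code 1. asp-1 and cpr-1 (medians 14190 and 12010) weigh most in these sums, and elt-2 (486.8) least. Of all single tested probe sets, 6.7% were lower in the HLH strain without overlap in each of the 3 sets. The part of the intestine genes in the cpg-2 difference was not tested.

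cpg-1, cpg-2, vit-6 and a shared vit-4 and vit-5 probe set were lower in set 2. Comparing set 2 with the mean of sets 1 and 3 within codes, 6 of 9 tested probe sets were called lower, and the other 3 had negative differences. The filter bears on this count: in set 2, 0 arrays were above the median for 172133_x_at, 194239_x_at and cpg-1 171776_x_at, which passed through the other arrays. This is read against a wide background, since 42.2% of all tested probe sets were called, 17.4% lower and 24.8% higher. The median difference was -0.73 for the 9 and 0.05 for all tested probe sets. Among the 7 probe sets below the filter, the no-filter fit gave 0.46 for vit-1, whose arrays were partly at the floor, 0.52, -0.04 and -0.63 for vit-4 (172673_x_at, 172134_x_at and 171723_x_at) and -0.48 for vit-5, none called. It called vit-6 190649_at lower (-0.55 ± 0.14, limma adjusted p 0.04), and vit-2 was at the floor throughout.

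The shared vit-4 and vit-5 probe set 172133_x_at read 105.2, 116.3, 108.6 and 104.6 in set 2. In set 1 it read 171.5 to 189.6 and in set 3 208.8 to 233.3, so set 2 did not overlap either, as was the case for 6.89% of all tested probe sets in this direction. It was 1.85-fold lower (log2 difference -0.89 ± 0.16, limma adjusted p 0.001). The array 2_2 (2) read 122.8, near set 2 on this probe set, but its set is uncertain. Its deviations from code means, which are not independent within a code, correlated on average 0.16 with set 1, -0.39 with set 2 and 0.33 with set 3. The other shared probe set, 194239_x_at, read 142.9 to 177.6 in set 2 and 163.9 to 299.7 in sets 1 and 3, and was not called (-0.42 ± 0.16, adjusted p 0.051).

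For vit-6, 173411_s_at read 324.6, 262.6, 242.8 and 157.9 in set 2, with sets 1 and 3 at 316.7 to 533.7. The lowest value belonged to marker code 4. The difference was -0.73 ± 0.18 (1.66-fold lower, limma adjusted p 0.0065), and it was -0.42 (adjusted p 0.032) without that array, so its size rests in part on 1 array. Within codes it was -0.45 for code 1, -0.39 for code 3 and -1.59 for code 4. rme-2, in contrast, was not called (-0.21 ± 0.13, adjusted p 0.22). Its set 2 arrays, 195.4 to 309.8, overlapped set 1 at 212.5 to 343.8 and set 3 at 215.4 to 295.2.

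Among the eggshell genes, cpg-1 on 192390_at read 476.6, 387.7, 367.1 and 397.0 in set 2 and 626.0 to 816.7 in sets 1 and 3. Set 2 did not overlap the others, as was the case for 6.89% of all tested probe sets in this direction. It was 1.74-fold lower (-0.80 ± 0.12, limma adjusted p 0.00024). The cpg-1 probe set 171776_x_at was called at -0.45 ± 0.16 (adjusted p 0.038), and that call ended when any 1 of 8 arrays was left out (marker codes 3 and 4 of set 1, HLH code 2 of set 1, HLH code 2 and marker codes 3 and 4 of set 2, HLH code 1 and marker code 3 of set 3; adjusted p 0.066 to 0.14). Both cpg-2 probe sets were 1.86-fold lower in set 2 (-0.89 ± 0.15 and -0.89 ± 0.13, limma adjusted p 0.00062 and 0.00028). cpg-3 was not called (-0.28 ± 0.11, adjusted p 0.058), with set 2 at 239.0 to 313.4 and sets 1 and 3 at 291.2 to 355.5.

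**Figure D3:**
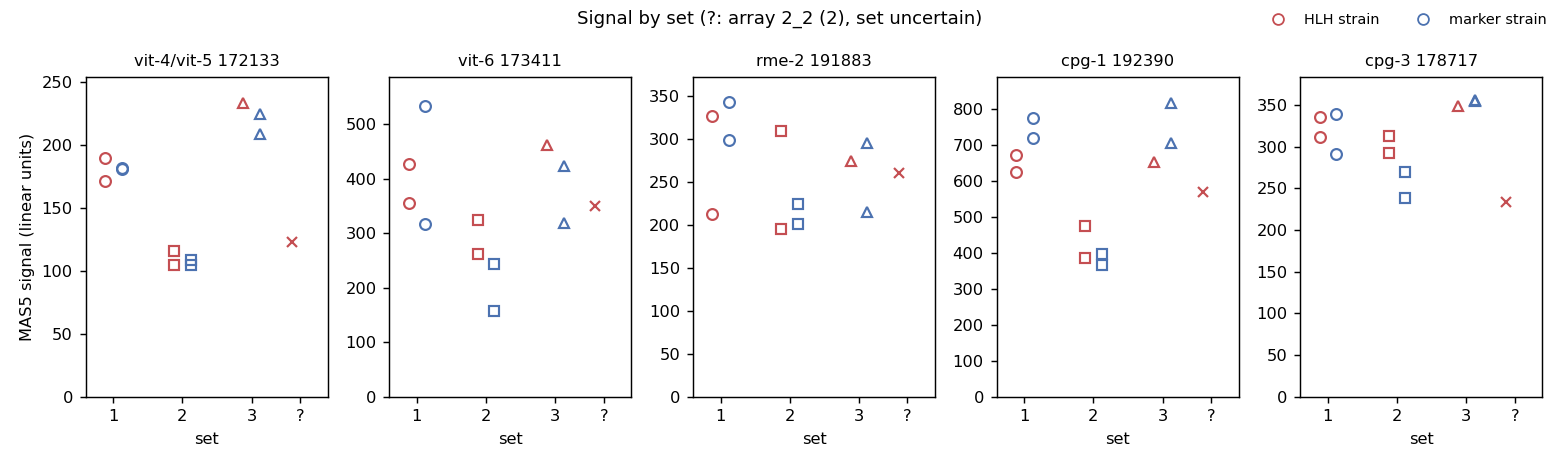
MAS5 signal (linear units, axes from 0) by set for 1 probe set each of vit-4/vit-5, vit-6, rme-2, cpg-1 and cpg-3; colour gives the strain, shape the set, and the cross is the array 2_2 (2). Set 2 lies below both other sets without overlap for vit-4/vit-5 and cpg-1, as for 6.89% of all tested probe sets, and overlaps them for rme-2.

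**Figure D4:**
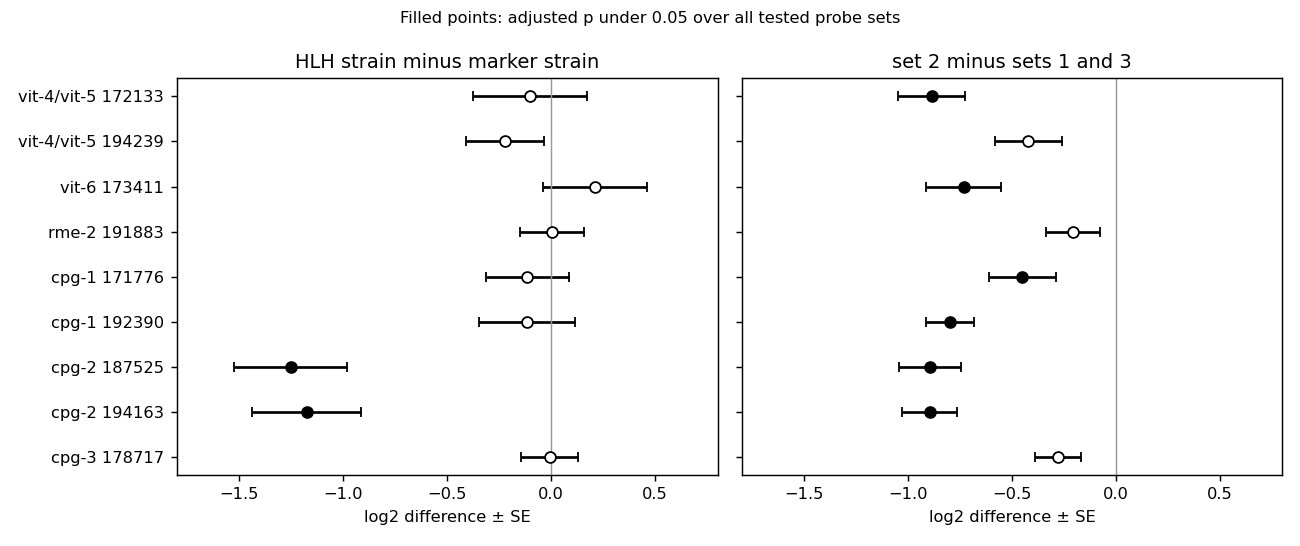
Log2 difference ± SE of the 9 tested probe sets, between strains on the left and for set 2 against sets 1 and 3 on the right. Filled points have a limma adjusted p under 0.05 over all tested probe sets: the 2 cpg-2 probe sets on the left and 6 of 9 on the right.

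No yolk or eggshell difference between sets 1 and 3 was called. Of 9 tested probe sets 0 were called between set 3 and set 1 by limma, with 0 at an unadjusted p under 0.05. Of all 12328 tested, 1.35% were called and 2297 were at that unadjusted p. The difference of set 2 from the other sets was not called as different by strain for any of the 9 in limma (0 called, 0 at an unadjusted p under 0.05), although this does not show that it was equal. Of all 12328 tested, 0.43% were called and 1395 were at that unadjusted p.

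Several marker lists moved with set 2. Of 10 sperm genes with a probe set, 0 were above the array median on all 12 arrays, 7 were never above it, and 2 were at the floor on all arrays. Their sum was 683.9 to 917.9 in set 2, 999.4 to 1091.9 in set 1 and 966.8 to 1109.5 in set 3. The oogenesis list, with 10 of 23 genes above the median on all arrays, summed to 7526 to 9625.7 in set 2, below 9948.7 to 10847.2 in set 1 and 10609.8 to 11238.4 in set 3. Of its 13 tested genes 6 were called lower and 0 higher, among them cey-2 at -0.62 and mex-5 at -0.59, RNA-binding proteins of the oocyte. Over all tested probe sets 17.4% were called lower and 24.8% higher in this comparison. oma-1, an oocyte maturation factor, read 24.8 to 87.3 and was never above the median. Of 8 intestine genes 5 were called lower, beside the same 17.4%, with asp-1 at -0.70 and act-5, the gut microvillus actin, at -0.76. Not all lists were low in set 2. The embryo sum was 1487.5 to 1691.3 in set 2, above 1264.2 to 1368.4 in set 1 and 1218.8 to 1405.1 in set 3. That of vitellogenin regulation and lipoprotein assembly was 11715.4 to 12743.6, above 8847.3 to 10475.8 in set 1 and 9241.7 to 10171.5 in set 3. The germ line sum, 3663.3 to 5031.6, overlapped set 1 (3135.9 to 3712.4) and set 3 (3297.2 to 3720.3) at its lower end. The part of these lists in the member differences was not tested.

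More genes of yolk regulation and lipoprotein assembly were called higher than lower in set 2. Of 13 tested genes of vitellogenin regulation and lipoprotein assembly, 7 were called higher, 1 lower and 5 were not called, beside the 24.8% higher and 17.4% lower over all tested probe sets. The list median was 0.38 against 0.05 for all. The Smads of the transforming growth factor beta pathway, sma-4 and sma-3, rose by 0.89 and 0.78 log2 units, lin-29, a timing factor of the larval-to-adult switch, by 0.65 and pqm-1 by 0.56. Of the 16 other eggshell genes 7 were called lower and 3 higher, with a list median of -0.31. egg-3, an egg activation protein, was at -0.71 and sqv-4 at -0.74, while cpg-8 was at 0.85 and perm-5 at 0.47. Of 13 yolk uptake genes 2 were called lower, clathrin heavy chain chc-1 at -0.49 and the adaptor dab-1 at -0.50, and rme-4 was called higher at 0.61. Of 6 germ line genes 2 were called higher and 1 lower, glh-1 and pgl-1, components of the germ granules, at 0.60 and 0.30 and the translational repressor gld-1, also in the oogenesis list, at -0.69. Of 4 genes of the gonad sheath and spermatheca 1 was called in each direction, and of 3 embryo genes 1 was called higher.

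**Figure D5:**
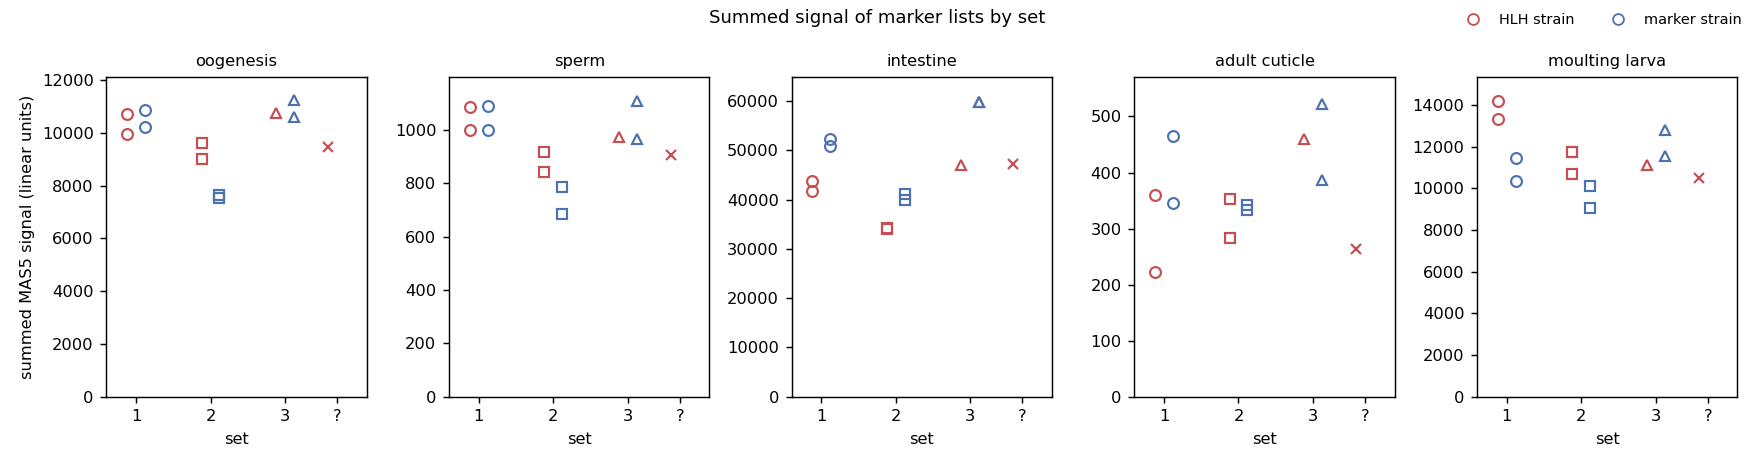
Summed MAS5 signal (linear units, axes from 0) of 5 marker lists by set; colour gives the strain and the cross is the array 2_2 (2). Oogenesis, sperm and intestine sums are low in set 2, with oogenesis at 7526 to 9625.7 there. The embryo and vitellogenin regulation sums, not plotted, are higher in set 2 than in sets 1 and 3.

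Stage markers gave the following levels. The 5 moulting genes were above the array median on 12 of 12 arrays, and their sum was 10489.6 to 14213.6 in the HLH strain and 9055.7 to 12815.4 in the marker strain. Of the 3 adult cuticle genes with a probe set, 0 were above it on all arrays, and col-19, an adult-specific collagen, read 18 to 145.2 and was never above it. The 1 adult cuticle gene tested, bli-2, was above the array median on 3 arrays, the fewest that the filter allows. Between strains it was not called without the block (-0.82, limma adjusted p 0.07). It was called lower in the HLH strain with the replicate block (-0.80, limma adjusted p 0.033), as were 7.26% of all tested probe sets. Of the 5 moulting genes 2 were called lower in set 2, beside 17.4% of all tested probe sets. By strain 0 were called in limma, with 0 at an unadjusted p under 0.05 without the block and 3 with it. Without the block 1983 of all 12328 tested were at that unadjusted p. The share of all tested probe sets at that unadjusted p with the block is not given here, so the 3 has no background beside it. chs-1, the eggshell chitin synthase, read 10.9 to 83.7, and ceh-60, an activator of vitellogenin transcription in the adult intestine, read 6.1 to 88.5, neither above an array's median. Most other genes of their lists were above the array median on all arrays, which does not rank the genes. Of 20 eggshell genes with a probe set, 12 were above the median on all arrays and 2 were never above it. Of 15 genes of vitellogenin regulation and lipoprotein assembly, 12 were above it on all arrays and 2 never.

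No yolk or eggshell probe set was called between the codes of a strain. Between HLH codes 2 and 1, 0 of 9 were called by limma, with 0 at an unadjusted p under 0.05. Of all 12328 tested, 0.0406% were called and 284 were at that unadjusted p. All 9 tested differences were negative, from -0.45 ± 0.22 for rme-2 to -0.13 ± 0.33 for cpg-1 (192390_at). Their median was -0.29, against -0.0082 over all tested probe sets. The probe sets below the filter went both ways in the no-filter fit, none called. It gave 0.68 for vit-1, 1.02, 0.41 and -0.16 for vit-4 (172673_x_at, 172134_x_at and 171723_x_at), -0.29 for vit-5 and 0.15 for vit-6 190649_at. vit-2 was at the floor throughout. rme-2 read 327.6, 309.8 and 274.3 in code 1 and 212.5, 195.4 and 260.9 in code 2, so the codes did not overlap, and its unadjusted p in limma was 0.058. cpg-3 did not overlap either, at 313.4 to 348.8 in code 1 and 233.2 to 311.9 in code 2, and 4.47% of all tested probe sets were lower in code 2 without overlap. Between marker codes 4 and 3, 0 of 9 were called, with 0 at an unadjusted p under 0.05. Of all tested, 0.0568% were called and 268 were at that unadjusted p. There the differences ran from -0.43 ± 0.27 for the shared vit-4 and vit-5 probe set 194239_x_at to 0.27 ± 0.22 for rme-2. Which code of either strain was heated is not given, so the code difference was compared between strains under both matchings. The larger limma p was taken, which called 0 of 9 members and 0% of all tested probe sets, with 0 members and 11 of all tested at an unadjusted p under 0.05.

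The probe sets whose pattern over the 12 arrays was nearest were found by the mean absolute difference of log2 signals centred on each probe set's mean. To the mean of the vit probe sets, which is dominated by dim values, the nearest were F26C11.3, unc-46 and E02H1.1, at 0.10 each. To rme-2 they were dnc-2 and tsp-3 at 0.12, and to the mean of the cpg genes cTel55X.1 at 0.09, asp-1 at 0.12 and unc-54, a body wall muscle myosin, at 0.12. These are descriptions over arrays that share strain and set.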

How the data were processed

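The deposited table holds linear intensity, a MAS5 signal for each of 22625 probe sets; the submitters' processing notes name MAS5, with no version given in the sources used here. Title codes and source names gave the groups. Probe sets took their names from the platform annotation (20766 with a single gene, 887 shared by several genes, 972 without a listed gene), and symbols were updated with the WBcel235 gene table. Signals below 16.7 were set to that floor before taking log2; ratios of low signals are noisy and the floor understates them. After removal of 77 control probe sets and the filter on dim signals, 12328 entered limma 3.58.1 in R 4.3.3 (lmFit, eBayes with trend, two-sided). The code and strain fit had 12 arrays in 4 groups, 8 residual and 4.87 prior degrees of freedom. The set fit had 11 arrays, code group and set, 5 residual and 7.76 prior degrees of freedom. Alternatives covered the floor, the filter, the scaling, the set of the uncertain array, a set block and leaving out each array.

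The shared set number was checked as a pairing on deviations from code means: 15 of 15 same-set pairs correlated above 0.1 (0.27 to 0.785), against 7 of 30 different-set pairs, so a fit with set as a block was run. Deviations from a code mean cancel within the code, which pushes correlations between different sets down, so the 7 of 30 is not a neutral reference. Array 2_2 (2) correlated on average 0.16 with set 1, -0.39 with set 2 and 0.33 with set 3, values that share this limit, and was not reassigned. Precision is limited by the number of arrays. Named genes are all members and, of each gene list and comparison, some of the 4 with the smallest p. Named outside this rule, after their values were seen, are the untested col-19, oma-1, chs-1 and ceh-60, elt-2 in the blocked fit and the 3 uncalled intestine genes. The members and gene lists were chosen with earlier results of these data known, so their counts are descriptions and were given no set test.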

Additional observations from a re-analysis of the deposited data

How the results depend on the processing

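Between strains, 2 member probe sets (both cpg-2) were called. This became 0 with no filter on low signals and 0 with array 2_2 (2) averaged with array 2_2, and it ran from 0 to 2 when 1 array was left out. Both cpg-2 differences stayed negative in every setting run, from -1.44 to -1.07 and from -1.37 to -1.07, with adjusted p from 9.3e-05 to 0.1 and from 0.00011 to 0.11, and each was called in 10 of 20 settings. The replicate block on 11 arrays kept both cpg-2 calls (-1.22 and -1.09), and it raised the calls over all probe sets from 335 to 1731; it changed no other member call. Without the set 2 arrays and array 2_2 (2) they were -1.44 and -1.23. In the set 2 comparison, both cpg-2 probe sets, cpg-1 192390_at and vit-4/vit-5 172133_x_at were called in 19 of 19 settings; cpg-1 171776_x_at and vit-6 173411_s_at lost their call with no filter (differences unchanged, adjusted p 0.056 and 0.065), while vit-6 190649_at, not tested otherwise, was called (-0.55, adjusted p 0.04). Quantile normalization called cpg-3 (-0.40, adjusted p 0.013), as did no filter (-0.28, adjusted p 0.046), and moved the share of higher calls from 58.8% to 48.8%. No member was called between codes in any setting run. Over the single-member values printed here, 373 kept their sign and side of the threshold, 32 lost a call, 7 gained one and 23 changed sign, each of these 23 uncalled in both settings. Between strains, rme-2 (0.00) went to -0.0545 with quantile normalization, -0.073 with the replicate block and -0.17 without the set 2 arrays, and ran from -0.0794 to 0.0915 with 1 array left out. cpg-3 (-0.01) went to 0.0154 with array 2_2 (2) averaged and 0.0964 with the block, and ran from -0.0797 to 0.0635. The vit-4/vit-5 probe set 172133_x_at (-0.10) went to 0.0413 with the block and ran from -0.25 to 0.063. With 1 array left out cpg-1 171776_x_at ran from -0.21 to 0.0169 and vit-6 from -0.0553, without marker code 4 replicate 2, to 0.38. Between HLH codes, cpg-1 192390_at (-0.13) went to 0.0742 without the set 2 arrays and array 2_2 (2) and ran from -0.30 to 0.0956. The set 2 by strain difference cannot be fitted without HLH code 1 replicate 3. The differences within sets and within codes were chosen after seeing the data. Probe sets near the floor, among them vit-1 and vit-2, carry too little signal for a fold.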
